A study of Mus musculus with 9 samples.

Results

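The dystrophin complex and caveolin genes are 8 genes whose proteins sit at the surface membrane of muscle cells: Dmd (dystrophin), Utrn (utrophin), Dag1 (dystroglycan), Sgca and Sgcb (alpha- and beta-sarcoglycan), Dtna (alpha-dystrobrevin), Cav1 (caveolin 1) and Cav3 (caveolin 3). The members were taken as every probe set whose only gene symbol in the array annotation is 1 of these 8, which gave 14 of the 12488 probe sets, for 8 of the 8251 genes so named, and 13 of the 14 were bright enough to be tested. The genes were chosen from earlier results of these same arrays, namely lower signals of Dmd in IGF1R-dnPI3K hearts and of a Cav3 probe set in IGF1R-caPI3K hearts, each against IGF1R hearts. Differences from IGF1R hearts are therefore a description here, and their adjusted p-values only place a probe set in the fit across all probe sets.

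RNA came from both ventricles of female mice aged 3 months and was hybridised to 9 arrays, 3 in each of 3 groups. IGF1R-caPI3K mice carried the insulin-like growth factor 1 receptor (IGF1R) transgene together with a constitutively active PI3K (p110) transgene. IGF1R-dnPI3K mice carried the IGF1R transgene together with a dominant negative PI3K (p110) transgene. IGF1R mice carried the receptor transgene alone, so all 3 groups overexpress the receptor and none is a wild type. Mice with a PI3K transgene alone and non-transgenic littermates were not analysed here, and the labels do not name the promoter that drives the transgenes.

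PI3K is the lipid kinase that carries the signal of the IGF1 receptor into the cell, and in the heart it is known for its part in growth. Dystrophin ties the actin cytoskeleton of a muscle cell to dystroglycan in the membrane, and dystroglycan binds laminin outside the cell. The sarcoglycans steady this link, dystrobrevin sits beneath it, and caveolin 3 is the muscle caveolin that forms small pits of the membrane called caveolae and binds dystroglycan. Loss of dystrophin or of a sarcoglycan causes muscular dystrophy with heart muscle disease.

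Dmd and Cav3 are the members on which the results turn, and their promoters are shown for that reason. From the RefSeq promoter table, on the build GRCm38.p6, 10 windows for 7 of the 8 genes were searched. Member windows on 1 chromosome were left out of the search, and no Dtna window was among the 10. Each sequence below is the 250 bases before an annotated start, read 5′ to 3′, with matches to a searched motif in capitals.
Dmd promoter 1: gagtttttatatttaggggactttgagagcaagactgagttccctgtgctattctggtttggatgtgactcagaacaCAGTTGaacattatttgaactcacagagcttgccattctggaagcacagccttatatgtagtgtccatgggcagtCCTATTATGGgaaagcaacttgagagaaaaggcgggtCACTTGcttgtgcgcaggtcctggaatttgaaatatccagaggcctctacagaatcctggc
Dmd promoter 2: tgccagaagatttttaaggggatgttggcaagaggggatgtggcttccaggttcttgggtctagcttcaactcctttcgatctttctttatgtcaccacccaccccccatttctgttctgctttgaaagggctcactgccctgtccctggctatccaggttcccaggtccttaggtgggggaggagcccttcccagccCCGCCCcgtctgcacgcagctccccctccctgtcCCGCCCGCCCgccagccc
Cav3 promoter: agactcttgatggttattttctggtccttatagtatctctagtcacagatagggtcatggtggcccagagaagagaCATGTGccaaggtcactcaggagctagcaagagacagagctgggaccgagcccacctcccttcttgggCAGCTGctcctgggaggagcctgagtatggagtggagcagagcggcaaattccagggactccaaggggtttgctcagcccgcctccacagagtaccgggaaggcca
Dmd promoter 1 lies at chrX:82948620-82948869, Dmd promoter 2 at chrX:85048045-85048294 and the Cav3 promoter at chr6:112459255-112459504, all on the plus strand. The motifs searched on both strands were the E-box CANNTG, the FoxO core TGTTTAC, the GATA site AGATAA, the SP1 box GGGCGG and the CArG box. Dmd promoter 1 held 2 E-boxes and 1 CArG box, Dmd promoter 2 held 3 SP1 boxes, of which the 2 nearest the start overlap each other, and the Cav3 promoter held 2 E-boxes. The FoxO core, the recognition motif of transcription factors that PI3K signalling holds back, had no match in any of the 10 windows, which says only that these letters are not there. Over the 32851 windows of the table, 66.2% held an E-box, 1.47% a CArG box, 32.7% an SP1 box, 9.99% the GATA site and 3.17% the FoxO core. GC content was 45.2% in Dmd promoter 1, 60% in Dmd promoter 2 and 56% in the Cav3 promoter.

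The arrays came from whole ventricle, where fewer cells of a type and less RNA per cell cannot be told apart. Of the 12 cardiomyocyte markers listed, 11 were on the array, and none of their signals was under 2831.9 on any array. Their summed signal was 182437 to 193399 in IGF1R-caPI3K hearts and 196085 to 244755 in IGF1R-dnPI3K hearts, against 169602 to 183017 in IGF1R hearts. The median signal of an array was 175.5 to 186.35 in IGF1R-caPI3K hearts and 161.3 to 185.5 in IGF1R-dnPI3K hearts, against 190.55 to 197.25 in IGF1R hearts. IGF1R-dnPI3K replicate 3 stood apart, with a mean correlation with the other arrays of 0.927, and it had the highest 3′ to 5′ signal ratio for Pcx (pyruvate carboxylase), 3.25. Values that it moves are given without it beside the result. The 3′ to 5′ signal ratio of CreX, a control added for the hybridisation, was 1.74 to 1.89 on IGF1R-caPI3K arrays and 1.79 to 1.83 on IGF1R-dnPI3K arrays, against 1.05 to 1.26 on IGF1R arrays. That of Gapdh was 0.843 to 0.873 and 0.844 to 0.943, against 0.747 to 0.818. Those of Pcx (1.57 to 1.87 and 1.79 to 3.25, against 1.40 to 1.71) and of Actb (1.01 to 1.04 and 1.09 to 1.15, against 1.04 to 1.24) overlapped between IGF1R arrays and the other 6. The CreX and Gapdh ratios part the IGF1R arrays from the other 6, and so does the median signal, which was highest on IGF1R arrays. Dmd, Cav3 162297_s_at, Dag1 161183_at and Cav1 97849_at part them too, as do the ratios given below between the 2 probe sets of Cav3 and of Dag1. For all of these a difference between genotypes and a difference in array handling cannot be told apart. Each array is labelled as a separate mouse sample.

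Dystrophin itself had a lower signal in both PI3K crosses than in IGF1R hearts. Its single probe set, 93623_at, had signals of 78.4, 132.4 and 83.1 in IGF1R-caPI3K hearts and of 124.2, 110.3 and 44.8 in IGF1R-dnPI3K hearts, against 357.4, 252.2 and 298.8 in IGF1R hearts. Every IGF1R heart lay above every heart of the other 2 groups, and those 2 groups overlapped each other. The means were 98.0 ± 29.9 and 93.1 ± 42.4, against 303 ± 52.7 (SD, n = 3 each). On the log2 scale Dmd differed by -1.82 ± 0.39 (SE) between IGF1R-dnPI3K and IGF1R hearts, with an adjusted p of 0.0185 in limma, and this passed the threshold of 0.05. Between IGF1R-caPI3K and IGF1R hearts the difference was -1.65 ± 0.39, with an adjusted p of 0.0856, which did not pass. Between the 2 crosses, the comparison that did not serve to choose the genes, it was 0.16 with a 95% interval of -0.69 to 1.01 and an adjusted p of 0.871. That interval holds differences of up to 2-fold between the crosses.

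The signals of Dmd were near the level of the filter. A probe set was tested if it exceeded the 40th percentile of its array, a signal of 98.6 to 119, on at least 3 arrays, and Dmd did so on 6 arrays. Its lowest value, 44.8 in IGF1R-dnPI3K replicate 3, was no higher than the brightest signal of Y-linked probe sets in these female hearts, 47.4. Without the filter on low values its adjusted p between IGF1R-dnPI3K and IGF1R hearts was 0.0673. Leaving out each IGF1R array in turn also ended the call, with adjusted p-values of 0.0526 to 0.0679. Without IGF1R-dnPI3K replicate 3 the difference was -1.36, with an adjusted p of 0.0225.

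Utrophin, the autosomal relative of dystrophin that can take its place at the membrane, was read by 2 probe sets. 92507_at had 458.7, 326.8 and 333.0 in IGF1R-caPI3K hearts and 321.2, 406.4 and 218.2 in IGF1R-dnPI3K hearts, against 313.6, 305.2 and 441.7 in IGF1R hearts. 92508_s_at had 231.0, 392.1 and 281.7 in IGF1R-caPI3K hearts and 350.7, 233.4 and 286.5 in IGF1R-dnPI3K hearts, against 142.5, 256.7 and 322.1 in IGF1R hearts. All 3 groups overlapped for both probe sets. Against IGF1R hearts, 92507_at differed by 0.08 in IGF1R-caPI3K hearts (95% interval -0.46 to 0.62) and by -0.19 in IGF1R-dnPI3K hearts (-0.73 to 0.35). The intervals of 92508_s_at were -0.30 to 1.04 and -0.34 to 1.00, so with 3 mice a group a rise of up to 2-fold is not excluded.

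**Figure D1:**
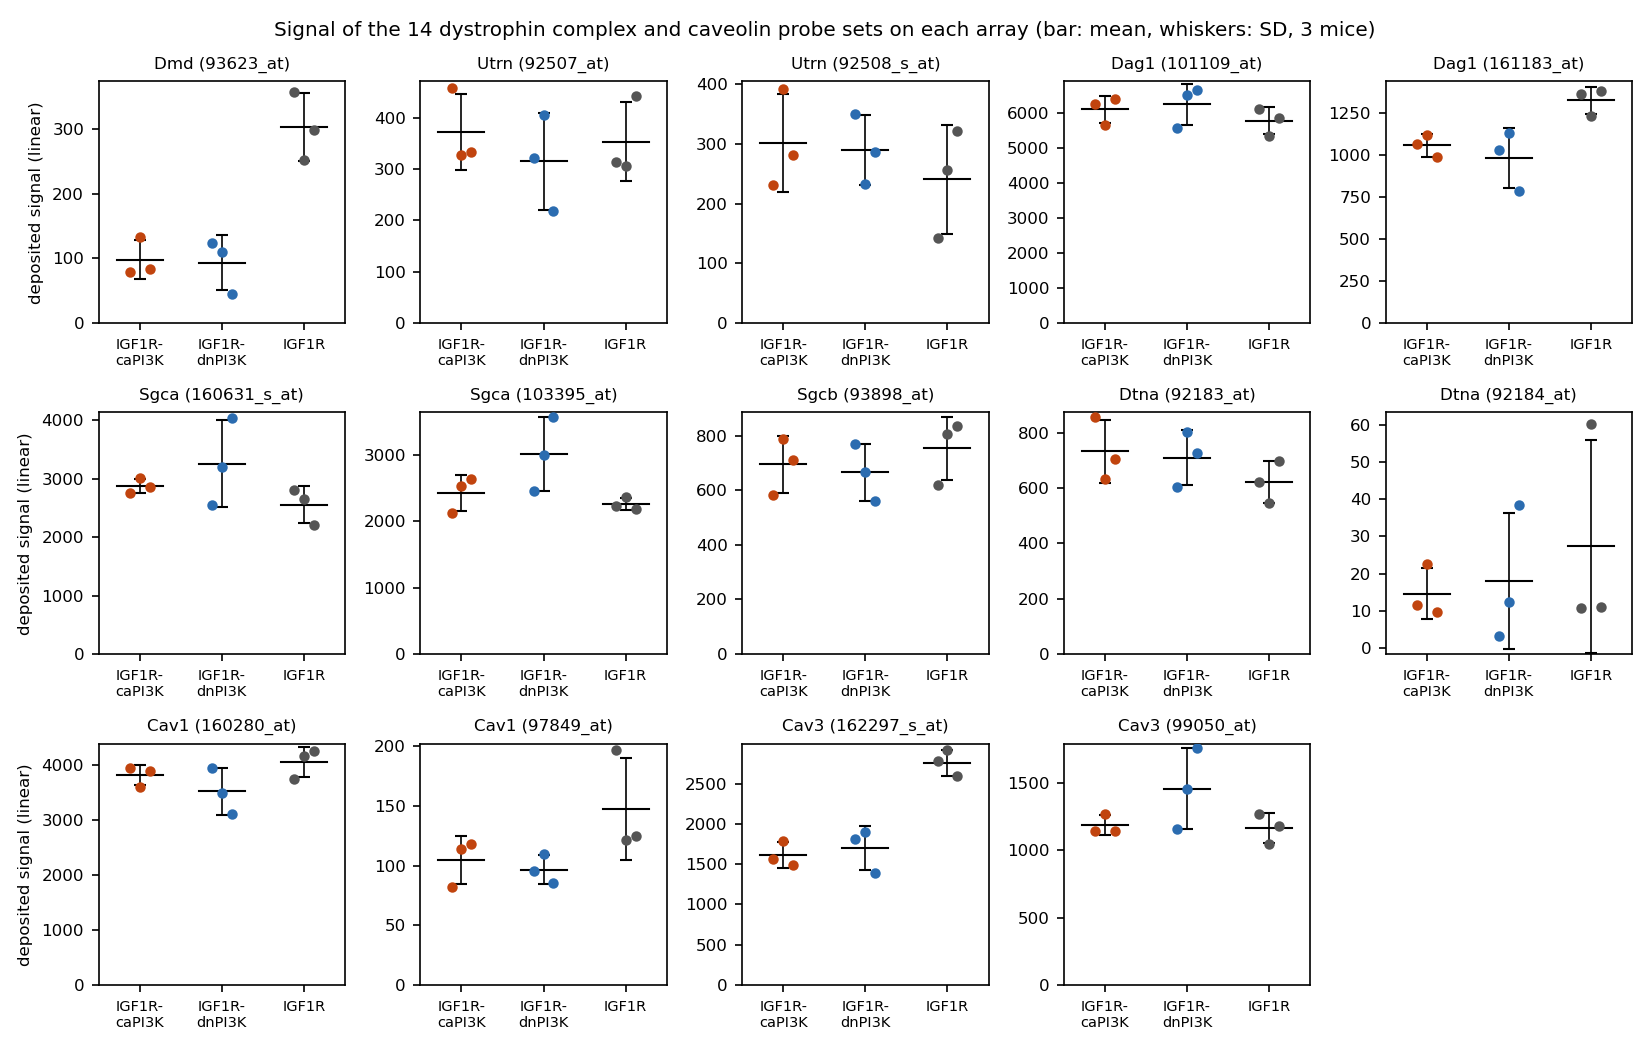
Deposited linear signal of the 14 member probe sets on each of the 9 arrays, with a point for each mouse, a bar at the mean and whiskers of 1 SD, for IGF1R-caPI3K, IGF1R-dnPI3K and IGF1R hearts. Dmd and Cav3 162297_s_at stand higher in all 3 IGF1R hearts than in the other 6, while the groups of Utrn, Sgcb and Dtna overlap.

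Dystroglycan, the laminin receptor at the centre of the complex, gave different pictures with its 2 probe sets. 101109_at had 6262.9, 5652.0 and 6382.2 in IGF1R-caPI3K hearts and 5573.7, 6495.1 and 6646.8 in IGF1R-dnPI3K hearts, against 6107.8, 5346.7 and 5859.5 in IGF1R hearts. Its groups overlapped, with differences of 0.08 ± 0.11 and 0.11 ± 0.11 (log2, SE) against IGF1R hearts. 161183_at had 1064.3, 1116.4 and 985.4 in IGF1R-caPI3K hearts and 1031.2, 1126.9 and 783.3 in IGF1R-dnPI3K hearts, against 1360.5, 1230.8 and 1379.4 in IGF1R hearts. The IGF1R hearts lay above both other groups for 161183_at without overlap. The differences were -0.33 ± 0.14 and -0.45 ± 0.14, with limma adjusted p-values of 0.258 and 0.0607, and neither passed. In IGF1R-dnPI3K hearts it passed without replicate 1 of that group (-0.49, adjusted p 0.0462) and without replicate 2 (-0.56, 0.0423), and was -0.29 with 0.133 without replicate 3.

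Alpha-sarcoglycan, a muscle membrane protein of the sarcoglycan subcomplex, was highest in IGF1R-dnPI3K hearts by its mean with both probe sets. 103395_at had 2118.1, 2535.4 and 2635.0 in IGF1R-caPI3K hearts and 2452.3, 3004.3 and 3567.1 in IGF1R-dnPI3K hearts, against 2231.8, 2365.1 and 2179.1 in IGF1R hearts. The IGF1R-dnPI3K hearts lay above the IGF1R hearts without overlap, by 0.40 ± 0.14, with a limma adjusted p of 0.0850 that did not pass. 160631_s_at had 2759.8, 3010.8 and 2862.5 in IGF1R-caPI3K hearts and 2545.7, 3195.9 and 4044.3 in IGF1R-dnPI3K hearts, against 2813.6, 2652.4 and 2213.0 in IGF1R hearts. Its groups overlapped, and its difference in IGF1R-dnPI3K hearts was 0.33 ± 0.16 with an adjusted p of 0.182. Without IGF1R-dnPI3K replicate 3, the highest heart for both, the differences were 0.27 and 0.16 with adjusted p-values of 0.217 and 0.474. Without IGF1R-dnPI3K replicate 1 both Sgca probe sets passed against IGF1R hearts, by 0.54 and 0.50 with adjusted p-values of 0.0164 and 0.0295. The sum of the cardiomyocyte markers was also higher in IGF1R-dnPI3K than in IGF1R hearts. Of the 11 markers, 5 passed there as higher and 1 as lower, beside 13.5% of all probe sets in either direction. Their part in the Sgca values was not tested.

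Beta-sarcoglycan, the partner of alpha-sarcoglycan in the same subcomplex, had 1 probe set, 93898_at. Its signals were 584.9, 789.0 and 712.3 in IGF1R-caPI3K hearts and 770.7, 666.4 and 562.1 in IGF1R-dnPI3K hearts, against 621.7, 806.3 and 835.6 in IGF1R hearts. The groups overlapped, and the differences from IGF1R hearts were -0.12 (95% interval -0.50 to 0.26) and -0.18 (-0.56 to 0.20). Alpha-dystrobrevin, which binds dystrophin and the syntrophins under the membrane, was measured by 92183_at. It had 858.4, 633.9 and 706.9 in IGF1R-caPI3K hearts and 603.2, 801.7 and 725.8 in IGF1R-dnPI3K hearts, against 621.2, 547.3 and 698.5 in IGF1R hearts. These groups overlapped as well, with differences of 0.23 (-0.12 to 0.59) and 0.19 (-0.17 to 0.54). The other Dtna probe set, 92184_at, had 9.7 to 22.5 in IGF1R-caPI3K hearts and 3.3 to 38.5 in IGF1R-dnPI3K hearts, against 10.7 to 60.3 in IGF1R hearts. It exceeded the filter on no array and was not tested.

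Caveolin 3, like dystroglycan, gave different pictures with its 2 probe sets. 162297_s_at had 1563.7, 1789.4 and 1487.7 in IGF1R-caPI3K hearts and 1813.9, 1904.5 and 1387.6 in IGF1R-dnPI3K hearts, against 2775.9, 2911.7 and 2589.0 in IGF1R hearts. All 3 IGF1R hearts lay above the other 6, which overlapped each other. The means were 1614 ± 157 and 1702 ± 276, against 2759 ± 162 (SD, n = 3 each). The difference from IGF1R hearts was -0.71 ± 0.14 in IGF1R-dnPI3K hearts, a ratio of 0.612, with a limma adjusted p of 0.0161, and this passed. In IGF1R-caPI3K hearts it was -0.78 ± 0.14 with an adjusted p of 0.0531, which did not pass. Between the crosses it was -0.07, with a 95% interval of -0.37 to 0.23 and an adjusted p of 0.843. Without IGF1R-dnPI3K replicate 3 the difference from IGF1R hearts in that group was -0.57, with an adjusted p of 0.0167. Leaving out each IGF1R array in turn ended the call, with adjusted p-values of 0.0503 to 0.0587.

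The other Cav3 probe set, 99050_at, had 1144.7, 1272.1 and 1142.3 in IGF1R-caPI3K hearts and 1159.4, 1456.7 and 1759.7 in IGF1R-dnPI3K hearts, against 1269.9, 1045.9 and 1178.9 in IGF1R hearts. Its groups overlapped, and it differed from IGF1R hearts by 0.03 ± 0.15 in IGF1R-caPI3K hearts and by 0.31 ± 0.15 in IGF1R-dnPI3K hearts, with limma adjusted p-values of 0.939 and 0.193. Without IGF1R-dnPI3K replicate 1 the second was 0.46 and passed, with an adjusted p of 0.0326. The log2 ratio of 162297_s_at to 99050_at on the same array, a quantity that scaling of the whole array cannot move, was 0.38 to 0.49 in IGF1R-caPI3K hearts and -0.34 to 0.65 in IGF1R-dnPI3K hearts, against 1.13 to 1.48 in IGF1R hearts. The ratio of the Dag1 probe sets, 101109_at to 161183_at, was 2.34 to 2.70 and 2.43 to 3.09, against 2.09 to 2.17. In both genes the 2 probe sets thus differed unequally between IGF1R hearts and the others, whereas for Utrn, Sgca and Cav1 the ratios of the groups overlapped. The CreX and Gapdh 3′ to 5′ ratios part the same arrays, and their part in these differences was not tested. The suffix s in 162297_s_at marks a design that may be shared by several transcripts, and which transcripts each probe set reads was not checked here, so the level of Cav3 as a gene has no single direction in these data.

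**Figure D2:**
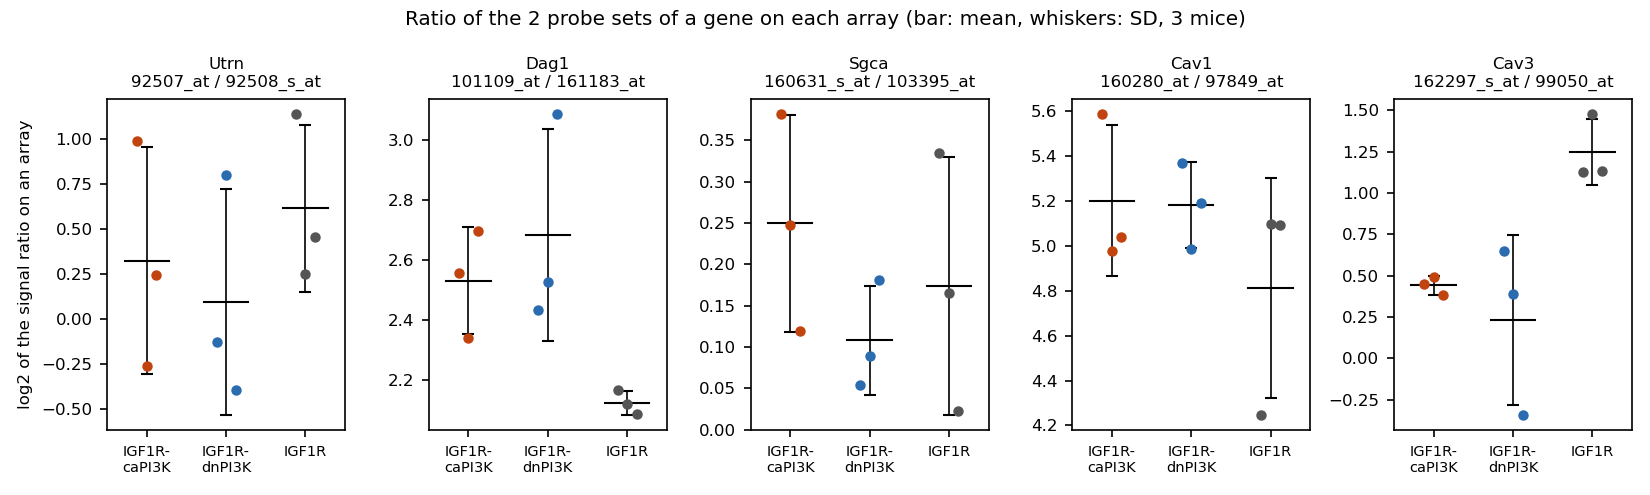
Log2 of the ratio of the 2 probe sets of each of 5 genes on each array, with a bar at the mean and whiskers of 1 SD over 3 mice, for IGF1R-caPI3K, IGF1R-dnPI3K and IGF1R hearts. The Cav3 ratio was 1.13 to 1.48 in IGF1R hearts and at most 0.65 elsewhere, and the Dag1 ratio was at most 2.17 in IGF1R hearts and at least 2.34 elsewhere.

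Caveolin 1, the caveolin of endothelial cells, fibroblasts and adipocytes, had 3944.0, 3599.1 and 3882.4 with 160280_at in IGF1R-caPI3K hearts and 3948.5, 3488.5 and 3109.0 in IGF1R-dnPI3K hearts, against 3734.7, 4158.1 and 4251.4 in IGF1R hearts. The groups overlapped, and the differences from IGF1R hearts were -0.09 (95% interval -0.34 to 0.16) and -0.21 (-0.46 to 0.04). The probe set 97849_at, above the filter on 6 arrays, had 82.0, 114.3 and 118.2 in IGF1R-caPI3K hearts and 95.4, 109.9 and 85.1 in IGF1R-dnPI3K hearts, against 196.7, 121.5 and 124.6 in IGF1R hearts. IGF1R hearts lay above both other groups, although by only 121.5 against 118.2 for the nearest pair, and the adjusted p-values were 0.415 and 0.198 in limma. The summed signal of 9 endothelial markers was 9558 to 10961 in IGF1R-caPI3K hearts and 9826 to 12524 in IGF1R-dnPI3K hearts, against 11067 to 12460 in IGF1R hearts, and its part in the Cav1 values was not tested.

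Sums of skeletal muscle, fibroblast, adipocyte, macrophage and smooth muscle markers also differed between groups, and Dmd, Cav3 and Cav1 are expressed by several of these cell types. All 13 skeletal muscle markers listed, 10 of 10 for fibroblasts, 6 of 10 for adipocytes, 7 of 8 for macrophages and 9 of 10 for smooth muscle were on the array. In that order, 9, 10, 4, 5 and 8 of them were bright enough to be tested. Their lowest signals were 4.1, 20.4, 1.7, 22.2 and 12.2, all under the floor of 32.4 used for the fit. The 13 skeletal muscle markers summed to 19556 to 20902 in IGF1R-caPI3K hearts and 5986 to 7700 in IGF1R-dnPI3K hearts, against 13990 to 14670 in IGF1R hearts. That sum was highest in IGF1R-caPI3K hearts and lowest in IGF1R-dnPI3K hearts, without overlap. The fibroblast sum was 32898 to 36610 and 22496 to 26443, against 30585 to 33421. The adipocyte sum was 1063 to 1387 and 1946 to 2130, against 1760 to 2039. The macrophage sum was lower in IGF1R-dnPI3K hearts, at 2019 to 3083, against 3704 to 4114 in IGF1R hearts. The smooth muscle sum was higher there, at 7071 to 8057, against 6225 to 6797. Their part in the values of the complex was not tested.

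Among the 13 tested member probe sets, 2 passed between IGF1R-dnPI3K and IGF1R hearts, Dmd and Cav3 162297_s_at, both lower. Over all 7898 probe sets tested 13.5% passed in that comparison, 450 higher and 616 lower, a split of 832 higher and 333 lower once arrays were scaled to a common median. Between IGF1R-caPI3K and IGF1R hearts none of the 13 passed in limma, and 0.215% of all probe sets passed. At an unadjusted p under 0.05 the counts there were 3 of the 13 and 18.4% of all. Because the genes were chosen from these 2 comparisons, which share the IGF1R arrays, nothing is read from the shares. Between the 2 crosses none of the 13 passed in limma, beside 1.24% of all probe sets. At an unadjusted p under 0.05 the counts there were 0 of the 13 and 15.4% of all.

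Groups that do not overlap were frequent everywhere. Between IGF1R-caPI3K and IGF1R hearts 4 of the 13 had no overlap, all lower, beside 32.9% of all probe sets. Between IGF1R-dnPI3K and IGF1R hearts 5 of the 13 did, 4 lower and 1 higher, beside 34.4% of all. Between the crosses none of the 13 did, beside 19.5% of all. The median log2 difference of the 13 was 0.03, -0.18 and 0.04 in these 3 comparisons, beside -0.04, -0.09 and 0.05 over all probe sets tested. The values between the crosses ran from -0.30 for Sgca 103395_at to 0.27 for Utrn 92507_at.

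**Figure D3:**
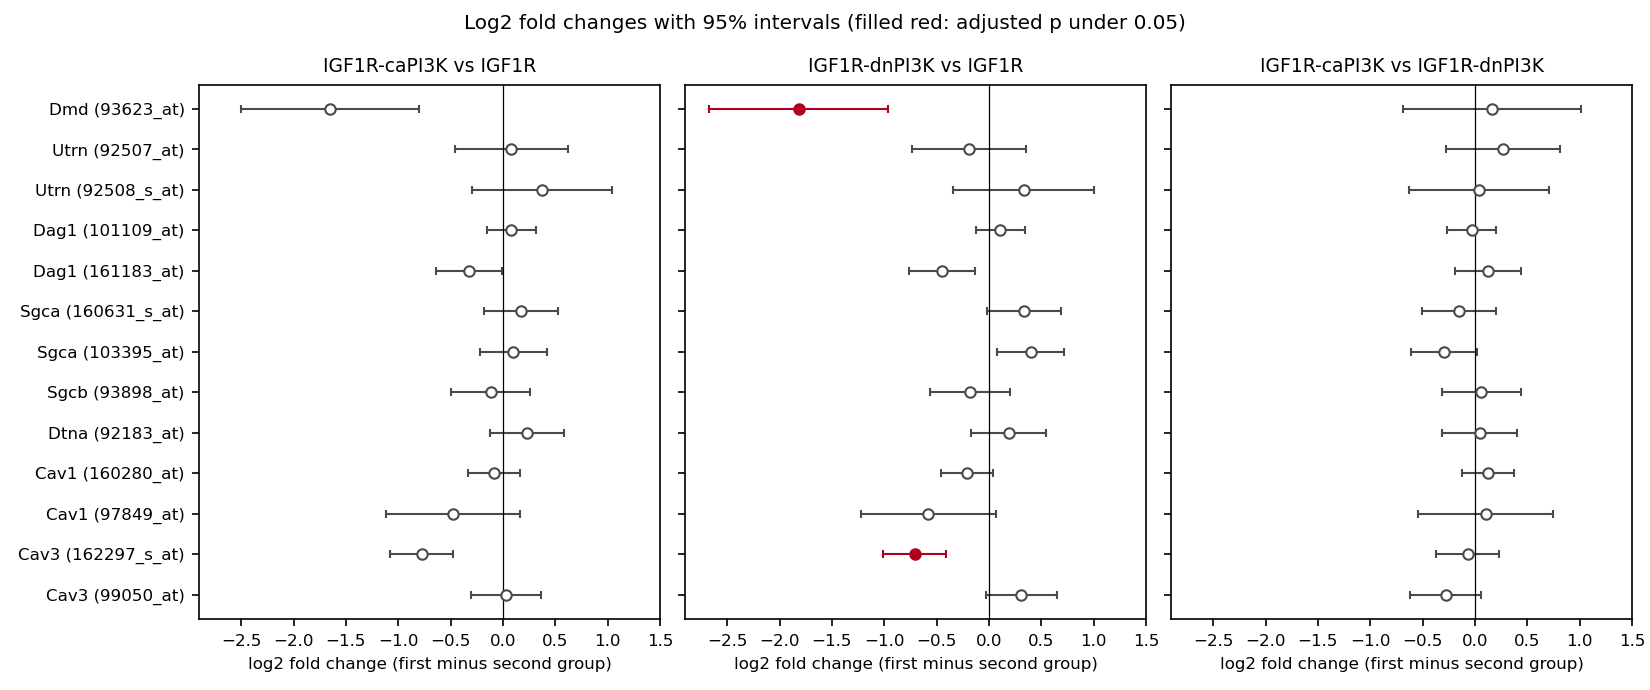
Log2 fold changes of the 13 tested member probe sets with 95% intervals, in 3 panels for IGF1R-caPI3K against IGF1R, IGF1R-dnPI3K against IGF1R and IGF1R-caPI3K against IGF1R-dnPI3K. Filled red points passed an adjusted p of 0.05, which only Dmd at -1.82 and Cav3 162297_s_at at -0.71 did, both in the middle panel.

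The numbers in the sample titles fall into 3 series by their leading digits, 10, 14 and 31, and the labels do not say what these mark. Series 10 holds 1 mouse of each group, and there Dmd was 78.4 in the IGF1R-caPI3K heart and 124.2 in the IGF1R-dnPI3K heart, against 298.8 in the IGF1R heart. Cav3 162297_s_at was 1563.7 and 1813.9 there, against 2589.0. Series 14 holds 2 IGF1R-caPI3K and 2 IGF1R hearts, with Dmd at 132.4 and 83.1, against 357.4 and 252.2, and Cav3 162297_s_at at 1789.4 and 1487.7, against 2775.9 and 2911.7. Every IGF1R heart lay above the other 6 hearts for both probe sets, so any division of the arrays puts IGF1R hearts highest. These values therefore say nothing about an effect of the series. With the series as a block, where the estimate for IGF1R-dnPI3K hearts rests on 1 mouse, Dmd differed by -1.13 with an adjusted p of 0.479 and Cav3 162297_s_at by -0.54 with 0.406, and neither passed.

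Of 19 other genes of the complex and its membrane partners on the array, 15 were tested, each by its brightest probe set. None passed between IGF1R-caPI3K and IGF1R hearts or between the crosses, and 1 of the 15 passed between IGF1R-dnPI3K and IGF1R hearts, lower, beside 13.5% of all probe sets. It was Capn3, calpain 3, a muscle protease and not itself a subunit of the complex. It averaged 698 ± 150 in IGF1R-caPI3K hearts and 444 ± 36.1 in IGF1R-dnPI3K hearts, against 809 ± 139 in IGF1R hearts, and the fall in IGF1R-dnPI3K hearts was -0.85 ± 0.18 with a limma adjusted p of 0.0174, a call that ended with the title number series as a block, with an adjusted p of 0.334. The medians over the 15 were 0.04, -0.05 and 0.09, beside -0.04, -0.09 and 0.05 over all probe sets. A second probe set of Lamb1, a chain of laminin, fell too (101948_at, 259 ± 56.2 in IGF1R-dnPI3K hearts and 492 ± 14.9 in IGF1R hearts, adjusted p 0.0146). It averaged 294 ± 33.0 in IGF1R-caPI3K hearts, also below IGF1R hearts without overlap (adjusted p 0.0884). The Lamb1 probe set counted in the list, 162263_f_at, differed between IGF1R-dnPI3K and IGF1R hearts by -0.27 with an adjusted p of 0.175. The brightest of the list were Bgn and Sspn. Bgn, biglycan, an extracellular proteoglycan that binds the complex, averaged 8117 ± 367 and 6038 ± 1063, against 6251 ± 15.3. Without IGF1R-dnPI3K replicate 3 it passed between IGF1R-caPI3K and IGF1R hearts (0.38, adjusted p 0.0343), beside 6.96% of all probe sets. It also passed between the crosses without that array (0.56, 0.0362), beside 0.798% of all. These are values of 96049_at. The other Bgn probe set, 162347_f_at, differed from IGF1R hearts by -0.15 in IGF1R-caPI3K and -0.39 in IGF1R-dnPI3K hearts, and by 0.24 between the crosses. Its adjusted p-values were 0.533, 0.0578 and 0.391, so Bgn had no single direction in IGF1R-caPI3K hearts. Sspn, sarcospan, the small membrane partner of the sarcoglycans, averaged 2774 ± 216 and 2846 ± 345, against 2156 ± 124, with adjusted p-values of 0.153 and 0.0508.

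All 7 other caveola genes on the array were tested. None passed between IGF1R-caPI3K and IGF1R hearts or between the crosses, and 1 of the 7 passed between IGF1R-dnPI3K and IGF1R hearts, beside 13.5% of all probe sets. That was Ehd1, a membrane-bending ATPase of endocytic recycling, which fell to 340 ± 70.6 in IGF1R-dnPI3K hearts, against 616 ± 56.7 in IGF1R hearts (-0.87 ± 0.16, limma adjusted p 0.0146), and averaged 475 ± 33.1 in IGF1R-caPI3K hearts. The call ended with the number series as a block (adjusted p 0.291), with only the 2 groups compared (0.0537) and without IGF1R replicate 1 or 3 (0.0503 and 0.0625). The list medians were 0.06, 0.02 and 0.04, beside the same medians over all probe sets as above, and the second was -0.02 without IGF1R-dnPI3K replicate 3. Without that array Cavin2, a caveola coat protein chosen after its values were seen, also passed there, at 1.03 with an adjusted p of 0.0136, beside 0.66 and 0.124 with all arrays. Cavin1, the coat protein that caveolae need, averaged 2723 ± 135 and 2952 ± 258, against 2499 ± 356, and differed by 0.13 ± 0.12 and 0.25 ± 0.12. Flot1, flotillin 1, a scaffold of membrane rafts, averaged 2800 ± 152 and 2871 ± 1204, against 2685 ± 49.8. Its difference between IGF1R-dnPI3K and IGF1R hearts was 0.02 with all arrays and -0.30 without IGF1R-dnPI3K replicate 3, with adjusted p-values of 0.969 and 0.136.

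Dystroglycan binds laminin only after its sugar chains have been built, and 6 genes of that pathway were on the array, of which 5 were tested. This list, like the other lists, was written with earlier results of these arrays known, so nothing is read from its shares or medians. Between IGF1R-dnPI3K and IGF1R hearts 3 of the 5 passed, beside 13.5% of all probe sets. It was 1 of the 5, B3galnt2, without IGF1R-dnPI3K replicate 3, beside 8.26% of all. With the number series as a block none of the 3 calls held, with adjusted p-values of 0.454 for B3galnt2, 0.552 for Pomgnt1 and 0.247 for Dpm3. B3galnt2, which adds a sugar to the laminin-binding chain, fell to 105 ± 16.2 in IGF1R-dnPI3K hearts, against 196 ± 2.79 in IGF1R hearts (-0.91 ± 0.21, limma adjusted p 0.0219). The lower mean lies at the level of the filter, a signal of 98.6 to 119. Pomgnt1, which extends the O-mannose chain, fell to 498 ± 73.2, against 689 ± 21.8 (-0.48 ± 0.13, adjusted p 0.0420), a call that held in 3 of 17 other settings and ended when arrays were quantile-normalized or scaled to a common median, with adjusted p-values of 0.0598 and 0.100. Dpm3, a subunit of the enzyme that makes dolichol-phosphate mannose, rose to 875 ± 86.2, against 642 ± 57.1 (0.45 ± 0.12, adjusted p 0.0378), a call that held in 5 of the 17. Dpm1, the catalytic subunit of that enzyme, averaged 1241 ± 81.2 in IGF1R-caPI3K hearts and 1064 ± 418 in IGF1R-dnPI3K hearts, against 1574 ± 257 in IGF1R hearts, with adjusted p-values of 0.537 and 0.125. In IGF1R-caPI3K hearts B3galnt2 averaged 140 ± 3.5, Pomgnt1 566 ± 30.9 and Dpm3 902 ± 27.0. Each differed there from IGF1R hearts in the same direction, without overlap. They part the IGF1R arrays from the other 6 as the CreX and Gapdh ratios do. Of the genes named above, Ehd1, Sspn and Lamb1 101948_at also part these arrays without overlap. For all of these, genotype and array handling cannot be told apart. None of the 5 passed between IGF1R-caPI3K and IGF1R hearts or between the crosses, and the list medians were -0.28, -0.48 and 0.30, beside -0.04, -0.09 and 0.05 over all probe sets. Without IGF1R-dnPI3K replicate 3 the list medians were -0.28, -0.27 and 0.08, and Dpm3 passed between IGF1R-caPI3K and IGF1R hearts (0.49, adjusted p 0.0363).

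The probe sets most like Dmd and Cav3 162297_s_at over the 9 arrays are given as a description. For Dmd they were Hmgcs1, a cholesterol synthesis enzyme (Pearson r 0.977), Eif3a, a subunit of a translation initiation factor (0.975), and Fermt2, kindlin 2, an integrin activator of heart muscle (0.973). For Cav3 162297_s_at they were Kif16b, an endosome motor (0.984), Eprs, a transfer RNA synthetase (0.981), and Tpd52 (0.977). Hmgcs1 averaged 467 in IGF1R-caPI3K hearts and 420.3 in IGF1R-dnPI3K hearts, against 755 in IGF1R hearts, and Eprs 432 and 444, against 799. The pattern was common, with 196 of 7107 probe sets of other genes above r = 0.9 for Dmd and 115 for Cav3 162297_s_at, and the 9 points share their array, scaling and RNA quality.

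**Figure D4:**
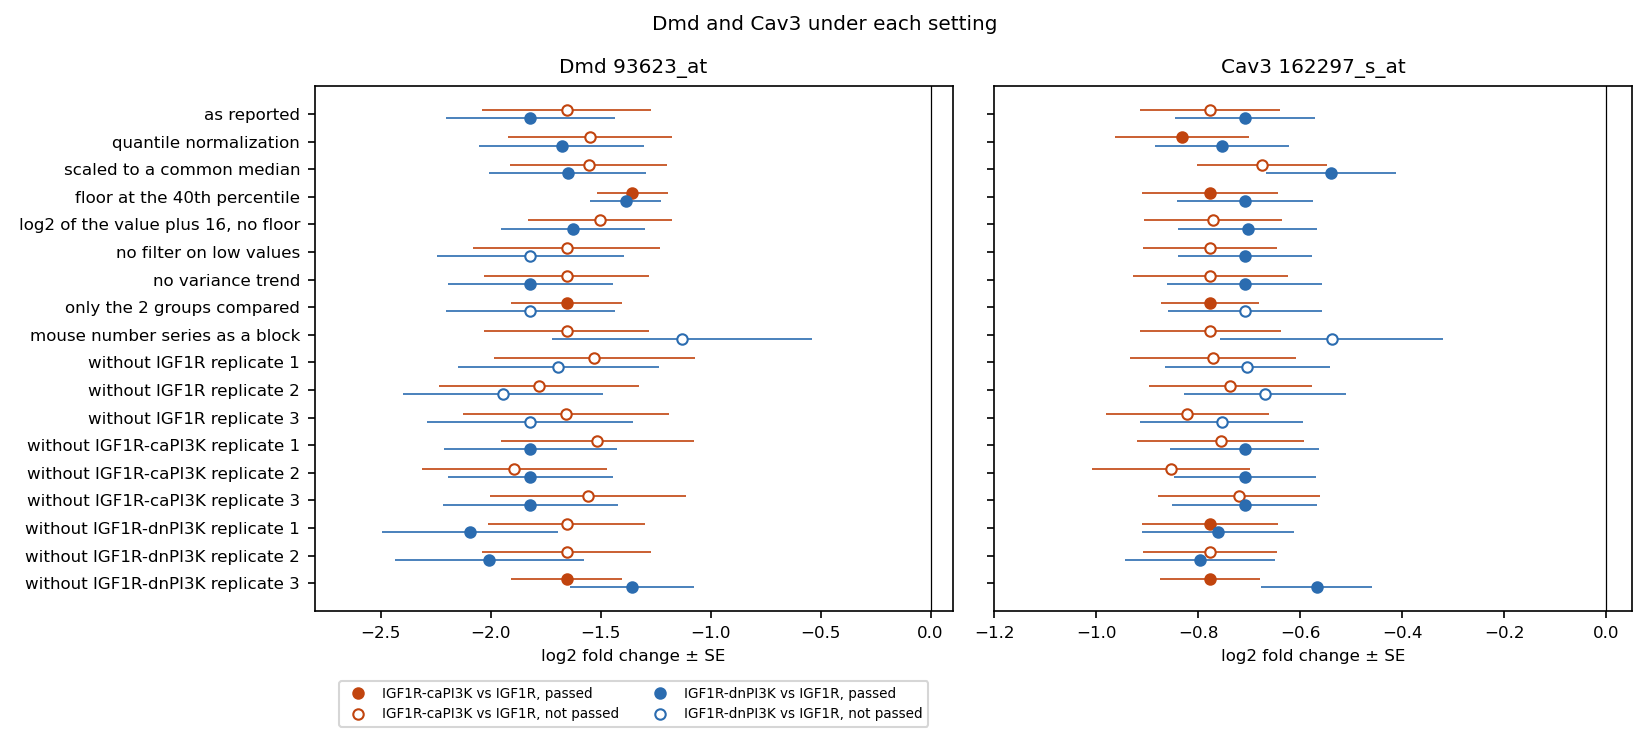
Log2 fold change with SE of Dmd and Cav3 162297_s_at against IGF1R hearts under each setting, in orange for IGF1R-caPI3K and blue for IGF1R-dnPI3K hearts, with filled points where the adjusted p was under 0.05. Dmd ranged from -2.09 to -1.13 in IGF1R-dnPI3K hearts and Cav3 162297_s_at from -0.80 to -0.54, below 0 in all the settings plotted.

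All values of Dmd and Cav3 162297_s_at against IGF1R hearts were below 0 in the 17 other settings that the plot shows. Both were chosen for lower signals and do not overlap IGF1R hearts, so leaving out an array could not change that sign. In IGF1R-dnPI3K hearts Dmd passed in 11 and Cav3 162297_s_at in 12 of the 17, and neither did without any 1 of the IGF1R arrays. In IGF1R-caPI3K hearts Dmd passed in 3 and Cav3 162297_s_at in 5 of the 17. Without IGF1R-dnPI3K replicate 3, the array that stood apart, both passed in IGF1R-caPI3K hearts, with adjusted p-values of 0.00957 and 0.00540 in limma. Of all probe sets 6.96% passed in that comparison without this array, beside 0.215% with all arrays.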

How the data were processed

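The deposited table holds 1 linear signal intensity per probe set and array. How the authors reached these intensities (scanner software, background, scaling) is not given in the sources at hand. Probe sets were named through the platform annotation, in which 10833 have 1 gene symbol, 396 several and 1193 none, apart from 66 control probe sets, which were left out. Intensities under 32.4, the 20th percentile over all arrays, were set to that value before log2 was taken. A probe set entered the fit when, on 3 or more arrays, it exceeded the level that 40% of probe sets lay below. The 7898 probe sets that did were fitted over the 9 arrays with limma 3.58.1 (R 4.3.3, variance trend), with Benjamini-Hochberg adjustment over all of them and a threshold of 0.05. The number of arrays limits the precision.

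Members and gene lists were chosen with earlier results of these data known. All member probe sets are named. From each other list the genes that passed and the 2 brightest are named, and for each of Dmd and Cav3 the 3 probe sets with the highest correlation. The second Lamb1 and the second Bgn probe set were singled out after their values were seen. That of Bgn was not put through the alternatives, and Cavin2 was not put through all of them. Alternatives varied the scaling, floor, filter, variance trend, arrays fitted and title number series. Replicate numbers were given in accession order.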

Additional observations from a re-analysis of the deposited data

How the results depend on the processing

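No paired analysis was possible because the replicate numbers were given in accession order and pair nothing. The number series of the titles, which hold unequal numbers of the groups, were fitted as a block instead. No fold change of a member probe set or a named list gene that passed, as reported or under another setting, changed sign in any of the 17 alternatives. Cavin2, which was not put through all of them, is not covered by this. Between IGF1R-caPI3K and IGF1R hearts the number of member probe sets that passed, 0 as reported, was 1 with quantile normalization, 2 with a floor at the 40th percentile and 2 with only the 2 groups compared, and 0 to 2 when single arrays were left out (1 without IGF1R-dnPI3K replicate 1 and 2 without IGF1R-dnPI3K replicate 3). Between IGF1R-dnPI3K and IGF1R hearts it was 2 as reported, 1 with no filter on low values, 0 with only the 2 groups compared and 0 with the number series of the titles as a blocking term. Leaving out single arrays gave 0 (without each of the 3 IGF1R arrays in turn) to 6 (without IGF1R-dnPI3K replicate 1, with both Sgca probe sets and Cav3 99050_at higher, and Dmd, Cav3 162297_s_at and Dag1 161183_at lower). Between the crosses it was 0 in all. The number of all probe sets that passed ranged from 0 to 699, 5 to 1861 and 8 to 539 in the 3 comparisons, beside 17, 1066 and 98 as reported. When single arrays were left out it ranged from 0 to 550, 73 to 1861 and 10 to 539, so the member counts are not read apart from it. Scaling to a common median moved the median of all probe sets between IGF1R-dnPI3K and IGF1R hearts to 0.08, beside -0.09 as reported, and Dmd and Cav3 162297_s_at were lower on either side of that shift. The same scaling gave 2 higher and 1 lower, beside 12 higher and 5 lower, between IGF1R-caPI3K and IGF1R hearts. The causes of these changes were not tested. The lists' named genes, apart from Cavin2, were put through the same alternatives after their values were seen. Between IGF1R-dnPI3K and IGF1R hearts Capn3 passed in 12, Ehd1 in 13, B3galnt2 in 12, Dpm3 in 5 and Pomgnt1 in 3 of the 17. The block ended the calls of all 5 and of Lamb1 101948_at (adjusted p 0.348). Leaving out IGF1R replicate 1 or 3 ended the calls of all 5 and of Lamb1 101948_at, and leaving out IGF1R replicate 2 ended those of all but Ehd1 and Lamb1. Those of Dpm3 and Pomgnt1 also ended without each IGF1R-caPI3K array and without IGF1R-dnPI3K replicate 3, that of Dpm3 without IGF1R-dnPI3K replicate 1 and that of Pomgnt1 without IGF1R-dnPI3K replicate 2. Intensities carry no depth, and the lowest Dmd signal was at the level of Y-linked probe sets.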
